A study of Homo sapiens with 6 samples.

Results

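The AP-1 genes and other immediate early genes, 10 in all, were followed in A549, a widely used cell line from a human lung adenocarcinoma, after knockdown of METTL3, the catalytic subunit of the complex that writes m6A on messenger RNA. They were taken by symbol from the 57781 rows of the count table: FOS, FOSB, FOSL1, FOSL2, JUN, JUNB, JUND, EGR1, IER2 and IER3. All 10 had a row, and 9 were among the 15125 genes with enough counts to be tested. Total RNA came from 3 libraries labelled as vector (genotype WT) and 3 labelled as METTL3 knockdown (shMETTL3), all grown in the same serum-containing medium with no further treatment named. The knockdown came from short hairpin RNA cloned in a plasmid, and neither the labels nor the methods say whether a clone or a pool was sequenced, or whether the numbers sh1 to sh3 of the count columns stand for different hairpins. The study's methods say in general that experiments were repeated independently, but no source says it of these libraries, so the p-values measure the spread between them, which may be technical.

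AP-1 is a dimeric transcription factor built from basic leucine zipper proteins. A FOS protein (FOS, FOSB, FOSL1 or FOSL2) typically pairs with a JUN protein (JUN, JUNB or JUND), whereas JUN proteins can also pair with each other. The dimer binds a short palindromic DNA site. Immediate early genes, among them FOS, JUN, EGR1, IER2 and IER3, are known for rapid and short-lived transcription after growth factors or stress, and many of their messengers carry AU-rich elements that shorten their life.

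Library totals ran from 14931426 to 19108928 counts, at which 3 counts, taken as the floor, stand at 0.150 to 0.189 CPM (counts scaled to a common library size by TMM). Floors and counting intervals cover counting error only. METTL3 itself stood at 49.9 ± 0.676 CPM in vector and 19.4 ± 0.525 CPM in shMETTL3 (SD, n = 3 each), with a log2 fold change of -1.36 ± 0.07 (SE). Its exons share 388 bases with TOX4 on the other strand, and no source says whether the counting used strand. Markers of A549 cells were abundant in every library, but their summed level was lower after knockdown, 18650 to 19190 CPM against 30070 to 31380 CPM, with 8 of 9 markers called lower and KRT7 higher. Of the other cell types, leukocyte markers summed to at most 0.567 CPM with none tested, whereas fibroblast markers summed to 6.46 to 9.87 CPM in vector and 14.3 to 14.7 CPM in shMETTL3, with 1 of 6 (COL1A1) called higher and COL1A2 and DCN at 0 in every vector library. Endothelial markers summed to at most 0.123 CPM in vector and 1.40 to 1.89 CPM in shMETTL3, with CDH5 (0, 0 and 2 counts in vector and 30, 28 and 30 in shMETTL3) called higher after it had passed the filter through the knockdown libraries alone, and VWF at 0 in every library. CDKN2A, deleted in A549, had at most 5 counts in a library. The part of these markers in the results below was not tested, and in bulk RNA fewer cells of a type and less RNA per cell cannot be told apart.

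After METTL3 knockdown, JUN, FOSB, FOSL1, EGR1 and JUNB rose, and JUND, FOSL2, FOS and IER2 fell. The rises ranged from 1.16-fold for JUNB to 7.40-fold for JUN, and the falls left between 83.5% of the vector level for IER2 and 40.6% for JUND. In each of these 9 genes all 3 libraries of one group lay above all 3 of the other. Of the 9 tested genes 9 were called changed at an adjusted p under 0.05, 5 higher and 4 lower. FOSB, 1 of the 5, reached the test only through the knockdown libraries in which it was high, and without it 4 were higher and 4 lower. The background was high, since 66.6% of all tested genes were called (33.7% higher and 32.9% lower), 69.4% had groups that did not overlap, and the median over all genes tested was 0.002 on the log2 scale. A call alone therefore does not set these genes apart.

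**Figure D1:**
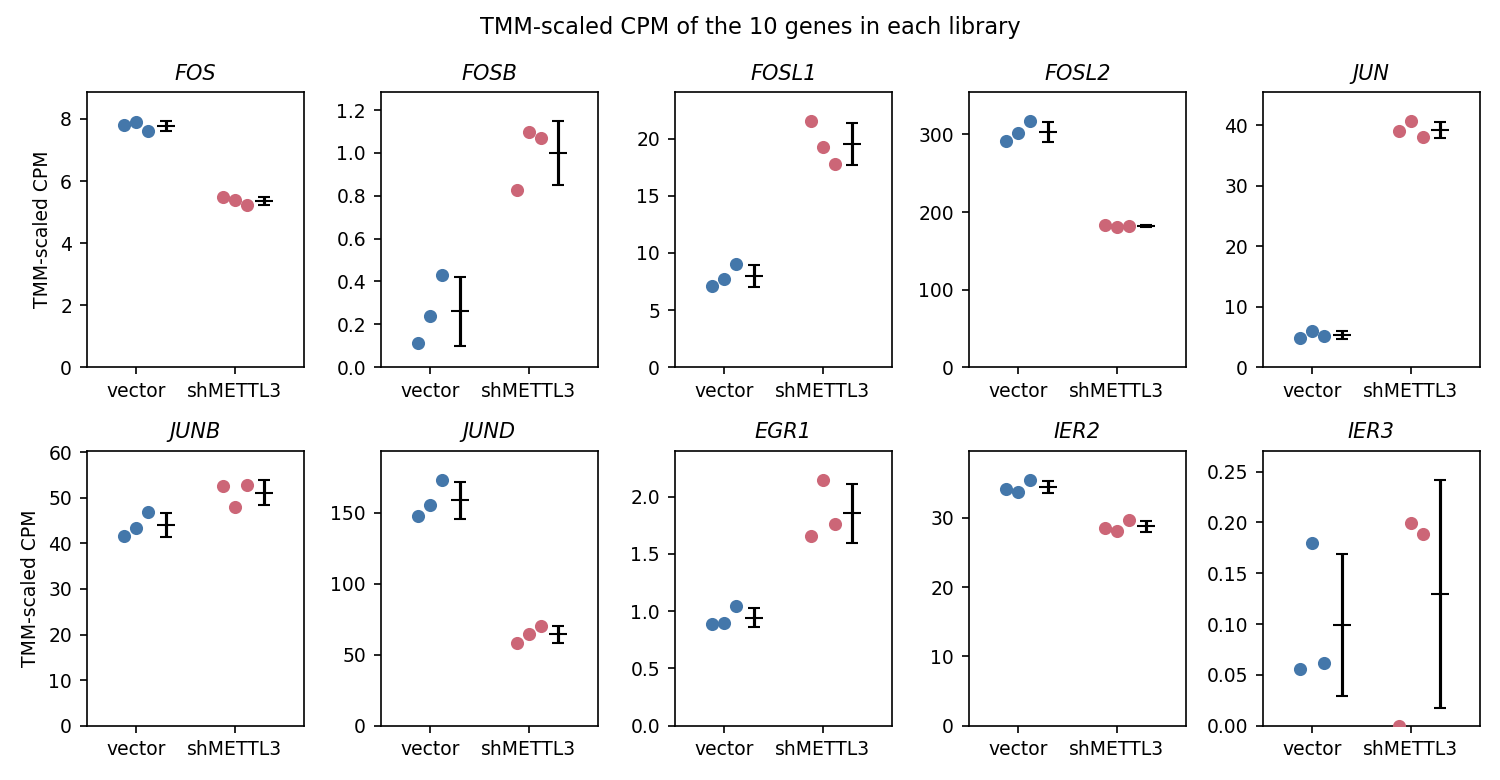
TMM-scaled CPM on a linear axis from 0 for each of the 10 genes, with 1 point per library (vector in blue, shMETTL3 in red) and the mean ± SD of 3 libraries in black. The groups do not overlap for 9 genes, with JUN near 5.31 CPM in vector and 39.3 CPM in shMETTL3, while the IER3 panel spans no more than 4 counts per library.

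Among the JUN proteins, JUN encodes c-Jun, the strongest activator of the family and a substrate of the JNK kinases. It lies on the minus strand of chromosome 1 (GRCh37 chr1:59242517-59249720) and its canonical transcript has 1 exon. The vector libraries held 4.79, 6.05 and 5.09 CPM and the shMETTL3 libraries 39.0, 40.6 and 38.1 CPM. The lowest knockdown library was thus several times the highest vector library. The means were 5.31 ± 0.656 and 39.3 ± 1.29 CPM (SD, n = 3 each), with a log2 fold change of 2.89 ± 0.09 (SE) and an adjusted p of 4.24e-20. Only 268 called genes rose more, which makes JUN the 269th largest rise among 15125 tested genes. Across 16 alternative fits its log2 fold change stayed between 2.81 and 3.06.

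JUND encodes a JUN protein that is commonly present in resting cells and is a weaker activator than c-Jun. The gene, on the minus strand of chromosome 19 (chr19:18390504-18392432) and also of 1 exon, went the other way. Vector libraries stood at 147.5, 155.7 and 173.0 CPM, and shMETTL3 libraries at 58.5, 64.3 and 70.5 CPM. Every knockdown library lay far below the lowest vector library. Mean levels were 158.7 ± 13.0 and 64.4 ± 5.98 CPM, the log2 fold change was -1.30 ± 0.07 and the adjusted p was 6.08e-16. There were 662 called genes that fell more. JUND had the highest GC content of the 10 genes, 69.9% of its transcript and the 99.6th percentile of tested protein-coding genes, and with offsets for GC content and transcript length its log2 fold change was -1.10.

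JUNB encodes the JUN protein that can oppose c-Jun on some promoters. It lies on chromosome 19 (chr19:12902300-12904129, plus strand), in 1 exon. Its libraries held 41.7, 43.4 and 47.0 CPM in vector and 52.7, 48.0 and 52.8 CPM in shMETTL3. The groups were separated by little, the lowest knockdown library standing just above the highest vector library. The rise from 44.01 ± 2.69 to 51.2 ± 2.76 CPM gave a log2 fold change of 0.22 ± 0.06 with an adjusted p of 0.00436. With GC content and length offsets the value was 0.38, and with scaling by library size alone 0.39. JUNB shares 259 exon bases with HOOK2 on the opposite strand, which fell by 0.78 on the log2 scale, and reads of the pair cannot be told apart without a strand setting.

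Promoter windows of 300 bases that span the start of transcription were available from RefSeq (GRCh38.p14) for 8 of the 10 genes, all but FOSL1 and IER3, and were located in GRCh37 by exact match. They are shown for the sites at which AP-1 and the related cAMP response element binding proteins act. Among the 8, TGACATCA was in JUN alone and TGACGTCA in JUND alone. The TGACG shown for JUNB was in all 8, so it does not set JUNB apart. Capitals mark the motif, all run 5′ to 3′ on the strand of the gene, and JUN and JUND are on the minus strand.
JUN, TGACATCA, chr1:59249768-59249797: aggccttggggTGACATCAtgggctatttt
JUND, TGACGTCA, chr19:18392614-18392643: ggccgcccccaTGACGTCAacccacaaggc
JUNB, TGACG, chr19:12902150-12902179: cgcttcctgacagTGACGcgagccgcctcc
JUN carried TGACATCA from 67 to 60 bases before its start, a variant of the AP-1 site found in 2.71% of 27305 promoter windows of the same length. JUND carried the full cAMP response element TGACGTCA from 200 to 193 bases before its start, found in 1.98%. The motifs were searched on both strands and were picked after these windows had been read. A match describes letters and was not tested as a binding site.

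Of the FOS genes, FOSL2 had the most abundant RNA. It encodes Fra-2, a FOS protein without the strong activation domain of c-Fos. The gene lies on chromosome 2 (chr2:28615315-28640184, plus strand) with 4 exons in the canonical transcript. Vector libraries held 291.0, 301.6 and 316.7 CPM and shMETTL3 libraries 183.0, 181.2 and 181.4 CPM. The knockdown libraries were almost level with each other and far below the vector libraries. FOSL2 fell from 303.1 ± 12.9 to 181.9 ± 0.968 CPM, with a log2 fold change of -0.74 ± 0.05 and an adjusted p of 4.75e-13.

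FOSL1 (Fra-1), a FOS protein known to be induced late after stimulation and to be sustained by ERK signalling, lies on chromosome 11 (chr11:65659520-65668044, minus strand). Its vector libraries held 7.13, 7.72 and 9.01 CPM and its shMETTL3 libraries 21.5, 19.3 and 17.8 CPM. The knockdown group was the higher, with no overlap. The mean rose from 7.95 ± 0.961 to 19.5 ± 1.87 CPM, 2.45-fold, with a log2 fold change of 1.30 ± 0.11 and an adjusted p of 2.03e-11. FOSL1 was the 1123rd largest rise of all tested genes.

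FOS encodes c-Fos, the classic serum-induced partner of c-Jun, and lies on chromosome 14 (chr14:75745529-75748933, plus strand). Its level was 7.80, 7.90 and 7.60 CPM in the vector libraries and 5.49, 5.39 and 5.23 CPM in the shMETTL3 libraries. Both groups were tight, and FOS fell where JUN, its partner, rose. From 7.77 ± 0.153 to 5.37 ± 0.132 CPM, the log2 fold change was -0.53 ± 0.13 with an adjusted p of 0.000632. With scaling by library size alone it was -0.36 and still called.

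FOSB, which encodes a FOS protein known in stimulated neurons and other cells, was close to the floor. On chromosome 19 (chr19:45971253-45978437, plus strand), it had 2, 4 and 7 counts in vector, against 16, 22 and 17 after knockdown. No vector library reached the 0.559 CPM that the filter asked of at least 3 libraries, so FOSB entered the test through its knockdown libraries alone. The ratio of the summed counts, 55 against 13, was 3.90 with a 95% exact binomial (Clopper-Pearson) interval from 2.11 to 7.79. The fit gave a log2 fold change of 1.93 ± 0.46 and an adjusted p of 0.000452. Leaving out single libraries moved the log2 fold change between 1.55, without vector replicate 1, and 2.47, without vector replicate 3.

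The FOS genes also differed in their sites. Windows from the FOSL2, FOS and FOSB promoters are given to show them, with the motif in capitals.
FOSL2, AP-1 site, chr2:28615717-28615746: gtgccattgtagTGACTCAtctcgggcaga
FOSL2, TGACG, chr2:28615646-28615675: tggagtctggggtTGACGtgagtgaatcca
FOS, TGACG, chr14:75745454-75745483: gtggttgagcccgTGACGtttacactcatt
FOSB, TGACG, chr19:45971181-45971210: agcaaggggcgggTGACGtaagcagggggg
The consensus AP-1 site (TGACTCA or TGAGTCA) was in 1 of the 8 promoters, that of FOSL2, from base 5 to base 11 counted from the RefSeq start, which lies downstream of the GENCODE start given above, against 4.92% of all windows. FOS and FOSB each had the TGACG core of the cAMP response element, ending 60 and 56 bases before the start. This core, which also lies within TGACGTCA, was found on either strand in 8 of the 8 promoters and in 6828 of the 27305 windows.

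Because counts grow with transcript length, levels were compared between genes only as CPM per kilobase of canonical transcript. In vector the order ran from JUND at 82.3 ± 6.74, over FOSL2 at 45.1 ± 1.93, JUNB at 24.0 ± 1.47, IER2 at 16.3 ± 0.419, FOSL1 at 4.67 ± 0.565, FOS at 3.69 ± 0.0727 and JUN at 1.63 ± 0.201, to EGR1 at 0.301 ± 0.0271 CPM per kb, with IER3 and FOSB below 0.1. In these 3 libraries no neighbours among the first 8 genes overlapped, and IER3 and FOSB overlapped each other. In shMETTL3 the order was JUND at 33.4 ± 3.10, JUNB at 27.96 ± 1.51, FOSL2 at 27.1 ± 0.144, IER2 at 13.6 ± 0.368, JUN at 12.1 ± 0.396, FOSL1 at 11.5 ± 1.10, FOS at 2.55 ± 0.0627, EGR1 at 0.591 ± 0.0817 and FOSB at 0.265 ± 0.0392 CPM per kb. There JUNB and FOSL2 overlapped, as did JUN and FOSL1. With the length of all annotated exons in place of the canonical transcript, JUN and FOSL1 stood above IER2 in shMETTL3.

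Within the JUN family, JUND made up 76.2% ± 0.450 of the summed CPM per kb in vector and 45.5% ± 2.46 in shMETTL3. JUN went from 1.51% ± 0.210 to 16.5% ± 1.128, and JUNB from 22.3% ± 0.330 to 38.1% ± 2.13. The family sum was lower after knockdown, 73.4 ± 3.24 against 108.0 ± 8.21 CPM per kb, so that the RNA of the family was smaller in total and more evenly divided. In the FOS family, FOSL2 fell from 84.3% ± 0.298 to 65.5% ± 1.68 of the sum while FOSL1 went from 8.70% ± 0.645 to 27.7% ± 1.82. FOS made up 6.90% ± 0.421 and 6.17% ± 0.0545, and FOSB stayed under 1%. The FOS-family sum was 53.6 ± 2.48 CPM per kb in vector and 41.4 ± 1.25 in shMETTL3. These shares are descriptions of RNA, given without a test, and say nothing of the amounts of protein or of dimers.

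**Figure D2:**
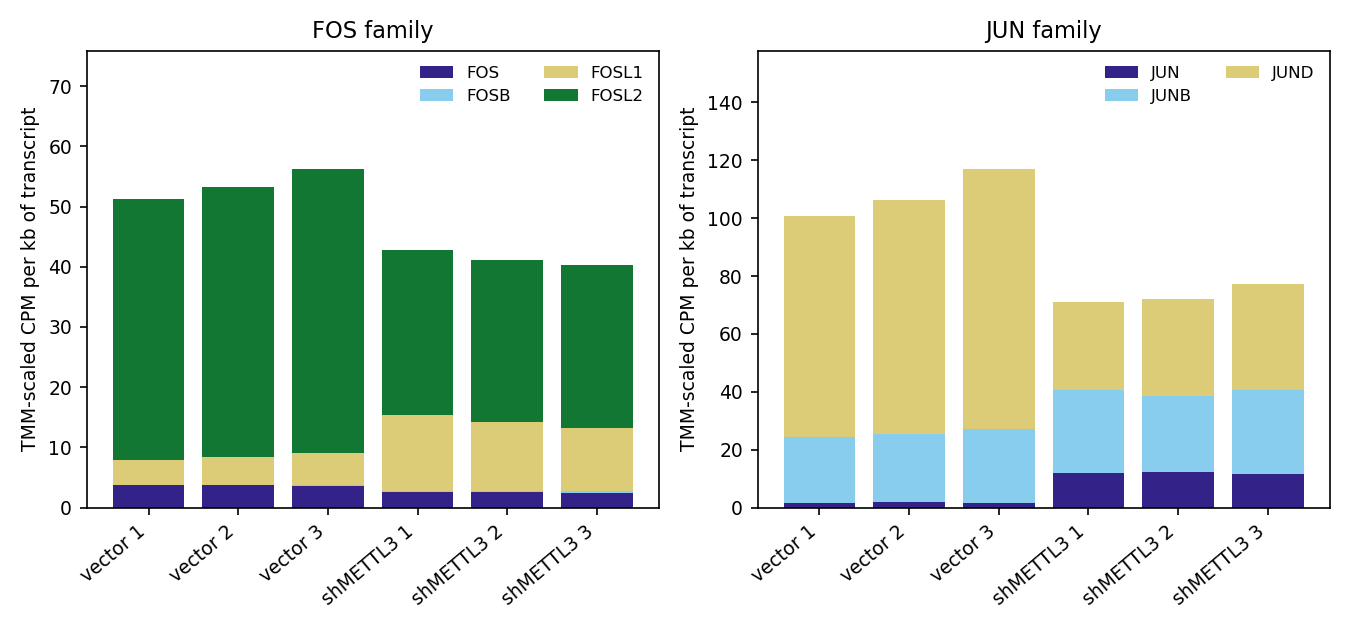
Stacked bars of TMM-scaled CPM per kb of canonical transcript for the FOS family (left) and the JUN family (right), 1 bar per library on linear axes from 0 that differ between the panels. JUND falls from 76.2% to 45.5% of the JUN family while JUN grows from 1.51% to 16.5%, and FOSL1 grows from 8.70% to 27.7% of the FOS family.

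EGR1 encodes a zinc finger factor that binds GC-rich sites and is induced through serum response elements. It lies on chromosome 5 (chr5:137801168-137804992, plus strand) with 2 exons. Counts were low, 16, 15 and 17 in vector and 32, 43 and 28 in shMETTL3. All knockdown libraries were higher, although at this depth the size is imprecise. EGR1 stood at 0.944 ± 0.0851 and 1.86 ± 0.256 CPM, with a log2 fold change of 0.98 ± 0.28, an adjusted p of 0.00284 and a ratio of summed counts of 1.98 (95% exact binomial interval 1.39 to 2.85). Its promoter was the only 1 of the 8 with CArG boxes, the core of the serum response element, and it had 2 of them, 105 to 96 and 83 to 74 bases before the start.
EGR1, first CArG box, chr5:137801053-137801082: gccggtcctgCCATATTAGGgcttcctgct
EGR1, second CArG box, chr5:137801075-137801104: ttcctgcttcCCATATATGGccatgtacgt
A CArG box was found in 1.29% of all windows, and the FOS window held none of this form. Sequence outside the windows was not searched, so a CArG box farther from the start of FOS or another member would not have been seen.

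IER2, a nuclear protein of the immediate early response, was the member with the smallest fall. It lies on chromosome 19 (chr19:13261225-13265725, plus strand). Vector libraries stood at 34.2, 33.8 and 35.5 CPM and shMETTL3 libraries at 28.5, 28.2 and 29.7 CPM. The groups were tight and did not overlap. IER2 fell from 34.5 ± 0.884 to 28.8 ± 0.776 CPM, with a log2 fold change of -0.26 ± 0.07 and an adjusted p of 0.00127. With scaling by library size alone this call was lost (log2 fold change -0.09, adjusted p = 0.262), and with GC content and length offsets the value was -0.14. Its exons share 662 and 946 bases with a pair of long noncoding RNA genes on the opposite strand.

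IER3, an early stress-response gene that modulates survival signalling, could not be measured here. On chromosome 6 (chr6:30710976-30712325, minus strand), its counts were 1, 3 and 1 in vector and 0, 4 and 3 after knockdown. These overlapped and were too few for the test, and without the filter the adjusted p was 0.827. The ratio of summed counts was 1.29 with a 95% exact binomial interval from 0.353 to 5.16. The gene lies in the major histocompatibility region, where most rows were near 0. From the first to the last HLA gene (chr6:29690552-33057473, a region set after the data were seen), 117 of 130 protein-coding rows (90%) had at most 10 counts over the 6 libraries, against 25.5% of 19002 such rows elsewhere. Within 1 Mb of IER3, 5 of 75 protein-coding rows (6.67%) were tested, against 51.8% to 81.5% around the other members. The near-zero count of IER3 can therefore not be read as its level in A549 cells, and the cause was not tested.

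**Figure D3:**
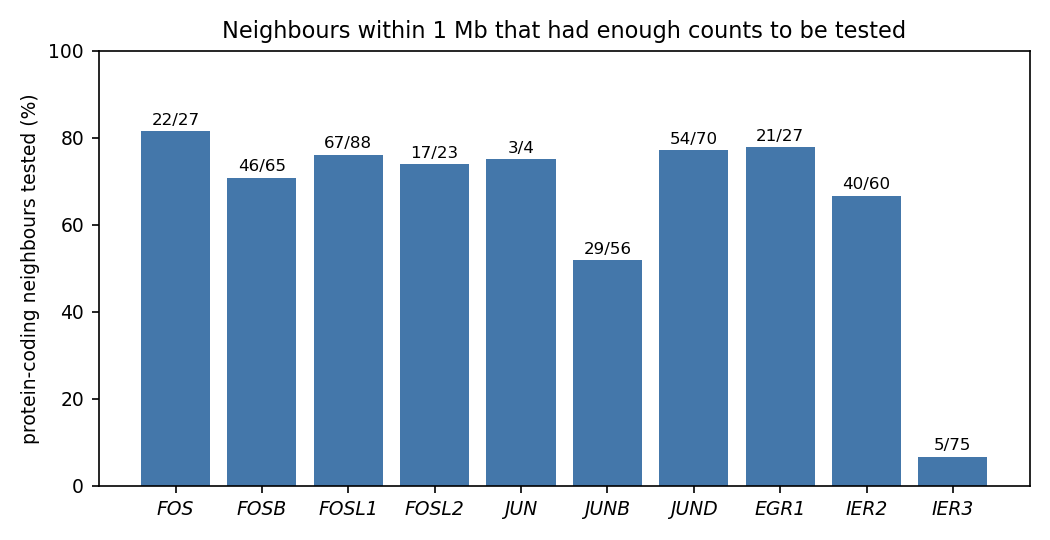
Bars give the percent of protein-coding rows within 1 Mb of each of the 10 genes that had enough counts to be tested, with the numbers tested and listed above each bar. IER3 stands apart at 6.67%, against 51.8% to 81.5% for the others.

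The medians of neighbouring genes were small beside the changes of JUN, FOSL1 and JUND. Around JUN, 3 genes within 1 Mb were tested, with a median log2 fold change of 0.19, and around FOSL1 72 were tested, with a median of -0.23. Chromosome 19, which carries FOSB, JUNB, JUND and IER2, had a median of -0.18 over 940 tested genes, 219 called higher and 422 lower. The fall of JUND was larger than the median of its 54 tested neighbours, -0.25, whereas the fall of IER2 equalled about that of its 41 neighbours, -0.27. JUNB rose among 30 tested neighbours of which 17 fell and 1 rose.

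In transcript features the 10 genes had shared traits that played no part in choosing them. JUN, JUNB and JUND have 1 exon each, as do 1.99% of the 12730 tested protein-coding genes with a canonical transcript. GC content lay between 52.8% for FOS and 69.9% for JUND, above the median of 48.2% in each of the 10. The count of GGACT, a common form of the m6A consensus, ran from 0 in EGR1 to 7 in FOSL2, against a median of 3, and 91.7% of tested genes had at least 1. These counts show sequence only, and no methylation was measured in these libraries.

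The AU-rich pentamer ATTTA was in the 3′ UTR of every member except IER2. FOSL2 had 9, IER3 had 6 and FOS had 5, against a median of 2 over tested protein-coding genes. Per kilobase of 3′ UTR, however, FOSL2 had 1.85, near the median of 1.74, since its 3′ UTR of 4869 bases is long, while IER3 had 8.14 and FOS 6.20. Stretches from the 3 genes with most copies and from JUN are shown, written with T and with ATTTA in capitals.
FOS, chr14:75748760-75748789: ttgtgtttttaATTTATTTAttaagatgga
FOSL2, chr2:28639215-28639244: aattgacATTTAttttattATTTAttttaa
IER3, chr6:30711425-30711454: taattaatATTTAtatgtATTTAtgtacgt
JUN, chr1:59247008-59247037: ttccagaaaggatATTTAagaaaatacaat
FOS with 5 and FOSL2 with 9 fell, and JUN and FOSB with 3 each and JUNB with 2 rose. Of those with 1 each, FOSL1 and EGR1 rose and JUND fell, and IER2 with 0 fell.

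The proteins that bind AU-rich elements changed in both directions. Of 8 genes of this list 7 were called, 2 higher and 5 lower (87.5% against 66.6% of all tested genes), with a median log2 fold change of -0.20. With GC content and length offsets 1 was higher and 6 lower (median -0.29), and when scaled by library size alone 2 were higher and 3 lower (median -0.02). ZFP36 (tristetraprolin), which speeds the decay of such messengers, fell from 50.4 ± 4.35 to 17.7 ± 1.42 CPM, a log2 fold change of -1.51 ± 0.08. Its relative ZFP36L1 rose from 55.1 ± 0.295 to 165.5 ± 7.43 CPM, a log2 fold change of 1.59 ± 0.05. ZFP36L2 and HNRNPD fell by 0.74 and 0.65, and TIA1 rose by 0.27 on the log2 scale. ZFP36 is itself known as an immediate early gene.

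Other immediate early genes mostly fell. Of 20 listed, 17 were tested and 16 called, 4 higher and 12 lower (94.1% called, against 66.6% of all tested genes, of which 32.9% were lower), with a median log2 fold change of -0.33. Scaled by library size alone, 5 were higher and 10 lower and the median was -0.16. NR4A2, an orphan nuclear receptor, fell most, from 55.2 ± 1.79 to 12.0 ± 0.590 CPM (log2 fold change -2.21 ± 0.07). NR4A1, its close relative, fell by 1.63 and PPP1R15A, which restores translation after stress, by 1.01. The rises were of CTGF (0.67), IER5L (0.66), IER5 (0.57) and CYR61 (0.54). CTGF and CYR61 are secreted matricellular proteins known as targets of YAP and SRF. EGR2, EGR3 and EGR4 had too few counts to be tested.

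The other leucine zipper partners of AP-1 fell or did not pass the test. Of 12 listed, 9 were tested and 6 called, 0 higher and 6 lower (66.7% called, against 66.6% of all tested genes), with a median log2 fold change of -0.43, or -0.25 when scaled by library size alone. ATF3, a stress-induced repressor that pairs with JUN proteins, fell from 29.8 ± 1.96 to 11.7 ± 1.84 CPM (log2 fold change -1.34 ± 0.09). BATF3 fell by 1.05 and the small MAF protein MAFG by 0.64. Among the untested, MAF had 0 counts in every vector library and 9, 8 and 10 in shMETTL3. BATF had no counts in any library.

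**Figure D4:**
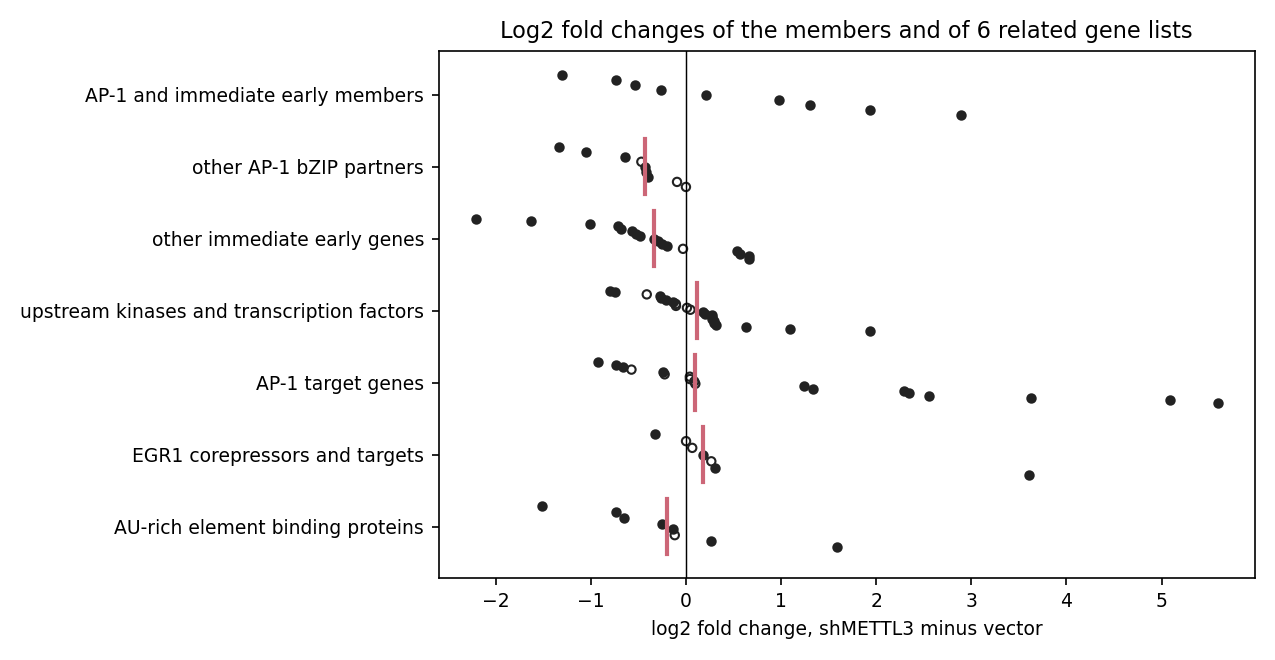
Log2 fold changes (shMETTL3 minus vector) of the tested members and of the tested genes of 6 related lists, with 1 point per gene, filled where the adjusted p was under 0.05, and a red line at the median of each of the 6 lists. The medians of the lists lie between -0.43 for the other leucine zipper partners and 0.18 for the EGR1 list, and points lie on both sides of 0 in most lists.

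The kinases and factors known to switch on these genes changed in both directions. All 22 listed were tested and 17 called, 11 higher and 6 lower (77.3% called, against 66.6% of all tested genes), with a median log2 fold change of 0.11. Their balance rests on the processing, with 7 higher and 9 lower under GC content and length offsets, and 13 higher and 2 lower (median 0.29) when scaled by library size alone. RPS6KA2, a ribosomal S6 kinase below ERK, rose from 1.05 ± 0.388 to 4.004 ± 0.335 CPM (log2 fold change 1.93 ± 0.24), RPS6KA3 rose by 1.10 and ELK1, which binds the serum response element with SRF, by 0.63 on the log2 scale. RPS6KA3 and ELK1 are on the X chromosome, where 373 of 456 tested genes were called higher and the median log2 fold change was 0.74. RPS6KA1, MAPK3 (ERK1) and MAP2K7, a kinase above JNK, fell by 0.80, 0.74 and 0.28. MAP2K4, the other kinase above JNK, rose by 0.30, and of the JNK genes MAPK8 rose by 0.29 and MAPK9 fell by 0.21. SRF fell by 0.26, and CREB1, with a log2 fold change of 0.05, did not pass the test.

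AP-1 target genes changed in both directions. Of 23 listed, 18 were tested and 12 called, 8 higher and 4 lower (66.7% called, against 66.6% of all tested genes). IL6 and MMP10, both among the 8, met the filter through the knockdown libraries, and with at least 10 counts asked of every library 7 of 16 were higher and 5 lower. The median log2 fold change of 0.09 was not stable, at -0.001 with GC content and length offsets, 0.27 (12 higher and 3 lower) when scaled by library size alone and 1.27 without the filter. The cytokine gene IL6 had 2, 2 and 3 counts in vector and 83, 96 and 90 in shMETTL3, so its ratio of summed counts, 35.5, has a wide 95% exact binomial interval, from 17.0 to 89.0. CXCL8, a neutrophil chemokine, rose by 3.63 on the log2 scale, from 15.1 ± 0.918 to 186.9 ± 4.92 CPM. Falls were seen in HMGA1 (0.93), PLAUR (0.74) and LAMB3 (0.66). The collagenase MMP1, often taken as the standard AP-1 target, had at most 10 counts in a library and was not tested, nor were MMP3, MMP9, MMP13 and INHBA.

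Around EGR1, 4 of 7 corepressor and target genes were called, 3 higher and 1 lower (57.1%, below the 66.6% of all tested genes), with a median log2 fold change of 0.18. Scaled by library size alone, 6 were higher and 0 lower, with a median of 0.35, and with GC content and length offsets 2 were higher and 1 lower, with a median of 0.10. PDGFB, a growth factor gene, had 4, 13 and 6 counts in vector and 103, 105 and 100 in shMETTL3, a ratio of 12.4 (95% exact binomial interval 8.09 to 19.8). It met the filter through the knockdown libraries, and with at least 10 counts asked of every library 2 of 6 were higher and 1 lower. PDGFA rose by 0.18 on the log2 scale, with an adjusted p of 0.0134. The list had 2 genes higher instead of 3 without vector replicate 2 and without shMETTL3 replicate 1. NAB2, which represses EGR1 and is known as its target, fell by 0.33, while the low-count RNA of EGR1 rose. A link between these changes was not tested. NAB1, F3 and TGFB1 did not pass the test.

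The genes whose centred log2(CPM + 0.1) profile over the 6 libraries lay nearest to that of JUN were ADAM19, IRAK2 and ZNF160, at Euclidean distances of 0.233, 0.255 and 0.264. For FOSL1 they were ZNF71, TMEM37 and ZNF613, at 0.0922, 0.142 and 0.168, and for EGR1 they were GNL3L, TARSL2 and LZTS3, at 0.123, 0.142 and 0.157. These are likenesses over 6 libraries in 2 groups, and nothing more is read from them.

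The spread between replicates differed among the members. The coefficient of variation was 4.27% and 0.532% for FOSL2 in vector and shMETTL3, 8.19% and 9.28% for JUND, 12.1% and 9.60% for FOSL1, and 12.4% and 3.29% for JUN, against medians over all tested genes of 8.06% and 6.23%. For FOS it was 1.97% and 2.46%, below the 8.70% and 10.1% that counting error alone gives at its depth. EGR1 and IER2 were also below counting error in both groups. FOSL2, JUN and FOSB were below it in shMETTL3 only, where counting error alone gives 1.73% for FOSL2. Among the 9 tested members it was highest for FOSB in vector, 61.5%, the gene with the fewest counts of the 9.

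**Figure D5:**
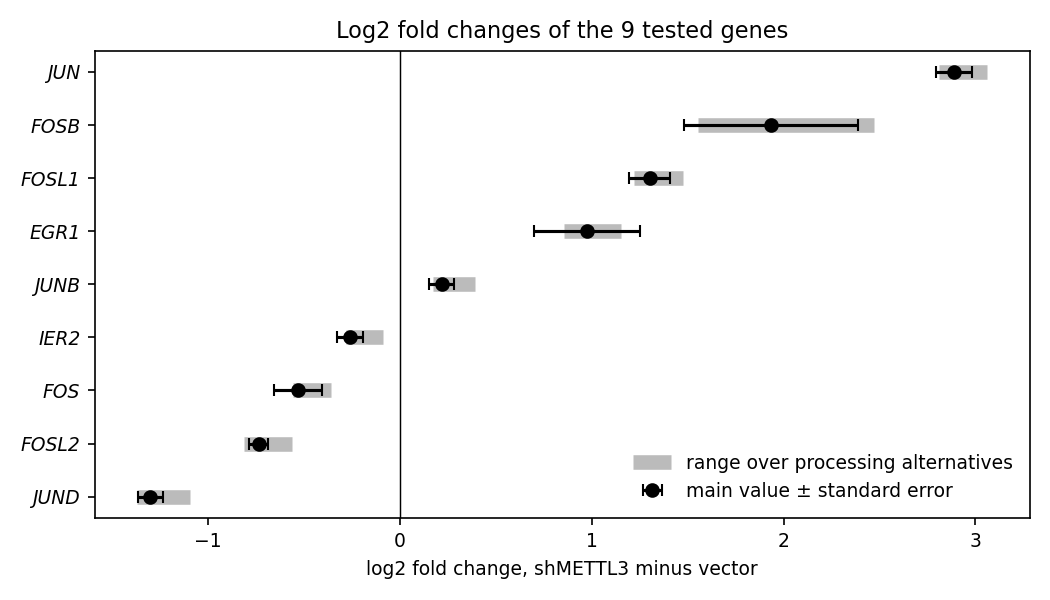
Log2 fold change (shMETTL3 minus vector) of the 9 tested genes, with the main value ± SE in black and the range over alternative fits in grey. The grey range stays on one side of 0 for each gene, from JUN at 2.81 to 3.06 down to JUND at -1.37 to -1.10, and IER2 comes closest to 0 at -0.09.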

How the data were processed

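RNA from 3 vector and 3 shMETTL3 A549 libraries was sequenced, with groups and numbering as the sample titles give them. The authors deposited raw counts per gene, whole numbers without normalization or filtering, mapped to hg19. The submitters' processing notes name cutadapt 3.0, HISAT2 2.2.1, SAMtools 1.13 and HTSeq 0.13.5, whereas the methods of the study name other versions of HISAT2 and htseq. Annotation and strand setting are not given in the sources used here. The members and gene lists were chosen with earlier results of these data known.

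From the counts, edgeR 4.0.16 in R 4.3.3 was used with TMM scaling, filterByExpr (minimum count 10), and its quasi-likelihood test on group alone, with Benjamini-Hochberg adjustment over the 15125 genes tested on the whole table. Genes were called at an adjusted p under 0.05. The functions were tested on simulated data. Features came from the GENCODE annotation of GRCh37 (canonical transcripts) and promoters from RefSeq. The offsets for GC content and length were loess fits with a span of 0.3. Alternatives were other scalings, filters and thresholds, DESeq2 1.42.0, limma-voom (limma 3.58.1), offsets, a replicate block and leaving out each library. Named genes were the 10 members, METTL3, up to 3 largest called rises and falls of each list, and 3 genes of nearest profile (log2 of CPM plus a pseudocount of 0.1) for FOSL1, JUN and EGR1. Some genes that this rule names are not reported here, though they stay in the counts of their lists. Other genes of the lists (CYR61, SRF, CREB1, MAP2K4, MAPK8, MAPK9, MMP10, NAB1, F3, TGFB1 and genes not tested) and TOX4 and HOOK2 were named after their values were seen. Figures were drawn with matplotlib 3.10.9.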

Additional observations from a re-analysis of the deposited data

How the results depend on the processing

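All 9 tested members were called in 15 of 18 alternatives, and no member changed sign. The median of AP-1 targets turned to -0.001 with GC content and length offsets, with or without the block, and the median of all genes, 0.002, lay within 0.03 of 0 on either side except with no filter (0.06) and library size alone. With library size alone as the scaling, the overall median log2 fold change was 0.18 instead of 0.002, and 65.8% instead of 50.6% of calls were higher. It left 8 members (IER2 was lost), 2 upstream genes lower, 6 EGR1-list genes higher and 0 lower, and 3 AU-rich binding genes lower. At least 10 counts in every library removed FOSB. Without the filter 2 leucine zipper partners were higher. GC content and length offsets, with and without the replicate block, left 7 upstream genes and 1 AU-rich binding gene higher, with 9 upstream genes lower. A log2 fold change of at least 1 left 2668 genes (1545 higher, 1123 lower), 4 members (3 higher, 1 lower), 2 leucine zipper partners (2 lower), 3 other immediate early genes (0 higher, 3 lower), 2 upstream genes (2 higher, 0 lower), 8 AP-1 targets (8 higher, 0 lower), 1 EGR1-list gene (1 higher, 0 lower) and 2 AU-rich binding genes (1 higher, 1 lower). Leaving out single libraries gave 9410 to 10072 called genes, 9 members each time, and 0 to 1 leucine zipper partners higher. Same-numbered libraries did not deviate together (r = 0.0694, -0.0237 and 0.039), so the numbers were not taken as pairs. The replicate block gave 10111 called genes and 9 members. Causes were not tested. Depth limits the precision of FOSB and EGR1.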
